A study of Homo sapiens with 11 samples.

Results

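The expression of 10 genes that act downstream of the kinase ERK was followed in ARP1 cells, a human myeloma cell line of the IgA kappa type. The genes were taken by name: the phosphatases DUSP4, DUSP5 and DUSP6, the inhibitors SPRY1, SPRY2, SPRED1 and SPRED2, the transcription factors ETV5 and FOSL1, and the kinase RPS6KA2. All 10 were among the 14458 genes of the knockdown table, and 9 were among the 11062 genes of the overexpression table, where SPRY2 is not analysed here. They were chosen with the results of both comparisons known, so their values, and the counts of them past a threshold, are a description from which nothing is inferred.

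ERK is switched on by growth factor and cytokine receptors through RAS, RAF and MEK, and it in turn activates transcription factors and kinases of the RSK family. Part of what ERK switches on is its own brake: DUSP phosphatases remove the activating phosphates from ERK and related MAP kinases, while Sprouty and Spred proteins act on RAS and RAF. In myeloma, RAS mutations and receptors such as FGFR3 are known routes into this pathway, and transcripts of the feedback genes are often used as a readout of it.

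The 11 RNA-seq libraries form 4 groups: PHF19 shRNA (n = 3), scramble (n = 3), PHF19 overexpression (OE, n = 2) and empty vector (EV, n = 3). PHF19 belongs to the accessory proteins of Polycomb repressive complex 2, and the comparisons asked which transcripts differ when it is targeted or overexpressed. OE and EV cells were infected with lentivirus packaged in HEK293T cells and carrying a PCDH plasmid, with the PHF19 open reading frame in OE and without it in EV. Sorting is stated for cells overexpressing PHF19, with nothing said of EV cells, so sorting and PHF19 cannot be told apart. The shRNA and scramble samples carry the same treatment text and a genotype tag that repeats the overexpression wording, so they were grouped by their titles. The promoter driving PHF19, the delivery of the shRNA, whether its 3 libraries share a hairpin, and whether replicates were separate cultures are not stated. P-values therefore measure the spread between these libraries, which may be technical.

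Values are abundances of FPKM type, scaled to gene length and library size, and the read depth behind them is unknown. A gene was called when its limma p, adjusted by Benjamini-Hochberg over all genes tested, was under 0.05. PHF19 itself had 75.2, 103 and 108 in shRNA libraries, against 113, 152 and 123 in scramble libraries, a log2 difference of -0.44 (SE 0.168) that did not pass (limma adjusted p = 0.147) except with the replicate number as a block (limma adjusted p = 0.0445). It had 227 and 213 in OE libraries, against 111, 119 and 115 in EV libraries (0.93, SE 0.0938, limma adjusted p = 0.0438). That call was lost in 10 of 13 alternatives. In the knockdown table shRNA replicate 1 stood apart, correlating with the other libraries at 0.953 to 0.973; the value for shRNA replicates 2 and 3 was 0.993. In the overexpression table the listed values summed to 498485 and 502349 in OE libraries, against 426112, 426016 and 425155 in EV libraries. Libraries there correlated at 0.76 to 0.831, and 762 to 961 genes per library are listed at exactly 0. MAP2K1, a core kinase of the pathway, is among them, with 73.3 and 89.1 in OE libraries and 0, 0 and 68.5 in EV libraries, so a 0 in that table is given as listed. Plasma cell markers were abundant, and all 10 were listed in each table. One of them goes by 2 symbols, JCHAIN in the knockdown table and IGJ in the overexpression table. Their sums were 1461 to 1878 in shRNA and 1832 to 2049 in scramble libraries. In the overexpression table they were 4386 to 11550 in OE and 2554 to 3559 in EV libraries. The overexpression sums rest mostly on IGJ, the immunoglobulin joining chain, with 9837 and 2623 in OE, against 1686, 1939 and 1700 in EV libraries. IRF4, SLAMF7 and POU2AF1 were also higher in both OE than in all EV libraries, as were 23.1% of all genes tested. XBP1, SDC1, CD38 and PRDM1 overlapped between those groups, as did TNFRSF17 and MZB1, which are listed at 0 in 2 EV libraries. Of the 10 markers tested there, 9 had positive differences and limma called 0. Of the 8 with no library at 0, 7 had positive differences (median 0.32, against 0.071 over all such genes). After PHF19 shRNA, 9 of 10 had negative differences (median -0.272, against 0.034 over all genes tested) and limma called 0. TNFRSF17 and MZB1 were lower in shRNA than in scramble libraries without overlap, as were 13.0% of all genes tested. The share of all genes with each sign is not given, so nothing is read from these counts. Of 10 markers of other cells, 7 were listed in the knockdown table, with sums of 12.5 to 19.4 in shRNA and 15.6 to 29.7 in scramble libraries. CD3E and CD14, which define T cells and monocytes, stayed at or under 0.96 in them, LYZ, a monocyte gene, at or under 1.71, and PTPRC, which marks leukocytes in general, at 5.99 to 10.8 in shRNA and 4.1 to 11.6 in scramble libraries. KRT18, a keratin, had 4.93, 4.79 and 5.51 in shRNA libraries, against 9.32, 11.1 and 13.0 in scramble libraries (-0.99, SE 0.155, limma adjusted p = 0.0137), and its part in the results was not tested. Of the 10, 4 were listed in the overexpression table, with sums of 11.0 to 18.4 in OE and 16.7 to 17.0 in EV libraries, and LYZ had 6.17 in OE replicate 2 and at most 0.396 in the others. PTPRC had 6.46 and 5.88 in OE libraries, against 8.93, 9.5 and 9.5 in EV libraries (limma adjusted p = 0.314). In bulk RNA, fewer cells of a kind and less RNA per cell cannot be told apart.

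After PHF19 shRNA the 10 genes did not move together. RPS6KA2 was about 10.3 times as abundant in shRNA as in scramble libraries, and DUSP5, the most abundant of the 10, was less than 0.5 times as abundant. Between libraries of equal number DUSP6, SPRY1, SPRY2, SPRED1, ETV5 and RPS6KA2 were higher in the shRNA library in 3 of 3 pairs. DUSP4, DUSP5 and FOSL1 were lower in 3 of 3. Some of these differences were near 0, the smallest being 0.012 for SPRY2 and 0.015 for DUSP6 on the log2 scale. The share of all genes with such a pattern was not computed, so nothing is read from it. The 9 genes that reached 1 in 3 or more libraries were tested. Of these, 1 was called higher and 1 lower, and 5.51% of all 10900 genes tested were called. Groups did not overlap for 3 of the 9, with 1 gene higher and 2 lower, and for 32.0% of all genes tested, 18.9% higher and 13.0% lower. Nothing is read from these shares, because the same comparison chose the genes. With the replicate block 4 of the 9 were called, 2 in each direction, where 11.9% of all genes were.

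**Figure D1:**
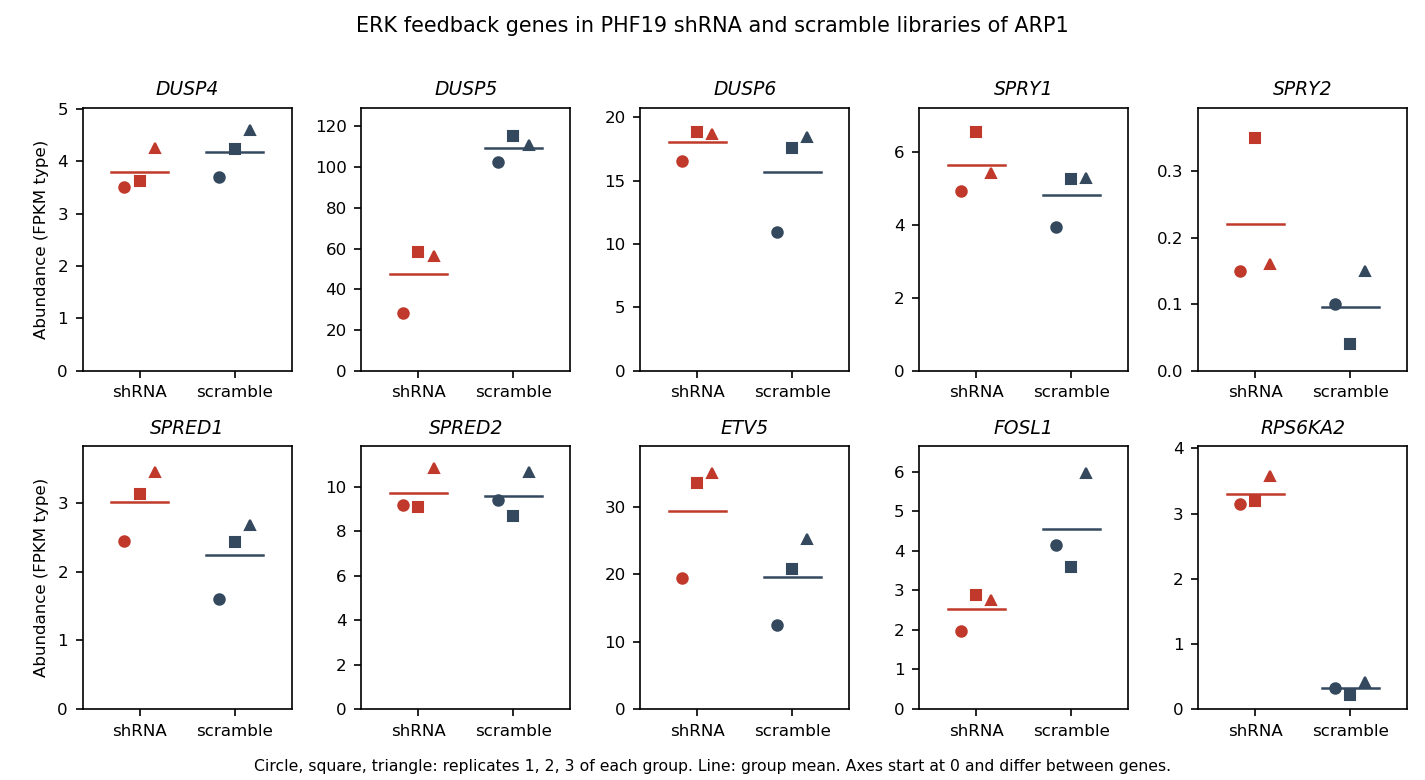
Abundance (FPKM type) of each of the 10 genes in the 3 PHF19 shRNA libraries (left, red) and the 3 scramble libraries (right, blue), with a line at each group mean. Points of the groups are apart for DUSP5, FOSL1 and RPS6KA2 and overlap in range for the other 7 genes.

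DUSP5, a nuclear phosphatase that acts on ERK, had 28.3, 58.5 and 56.6 in shRNA libraries, against 103, 115 and 111 in scramble libraries. All shRNA libraries lay below all scramble libraries, and shRNA replicate 1 was lowest by far. The means were 47.8 ± 16.9 in shRNA and 109.5 ± 6.43 in scramble libraries (SD, n = 3 each), a log2 difference of -1.25 (SE 0.242), or -0.92 without shRNA replicate 1. DUSP5 was called in the main fit (limma adjusted p = 0.0243). Without scramble replicate 1, 2 or 3 the difference was -1.30, -1.21 and -1.24, not past the threshold. Nor did DUSP5 pass with no filter on low values (limma adjusted p = 0.0553).

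DUSP6, a cytoplasmic ERK phosphatase, had 16.5, 18.8 and 18.7 in shRNA libraries, against 10.9, 17.5 and 18.5 in scramble libraries. Scramble replicate 1 was low and the other 5 libraries lay close together, so the log2 difference of 0.22 (SE 0.186) came to -0.001 without that library. DUSP4, a nuclear phosphatase of several MAP kinases, had 3.5, 3.62 and 4.26 in shRNA libraries, against 3.69, 4.23 and 4.59 in scramble libraries (-0.11, SE 0.152). Its groups overlapped.

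The make-up of the phosphatase transcripts differed between the groups. The summed abundance of 10 MAP kinase phosphatase genes, the 3 above with DUSP1, DUSP2, DUSP7, DUSP8, DUSP9, DUSP10 and DUSP16, was 95.4 to 118 in shRNA and 170 to 186 in scramble libraries. DUSP5 made up 42.4% ± 11.1 of the sum in shRNA and 61.2% ± 0.954 in scramble libraries (SD, n = 3 each). The other 9 summed to 59.7 to 67.1 in shRNA and 67.8 to 70.4 in scramble libraries, so that without DUSP5 the groups still did not overlap but lay nearer to each other.

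**Figure D2:**
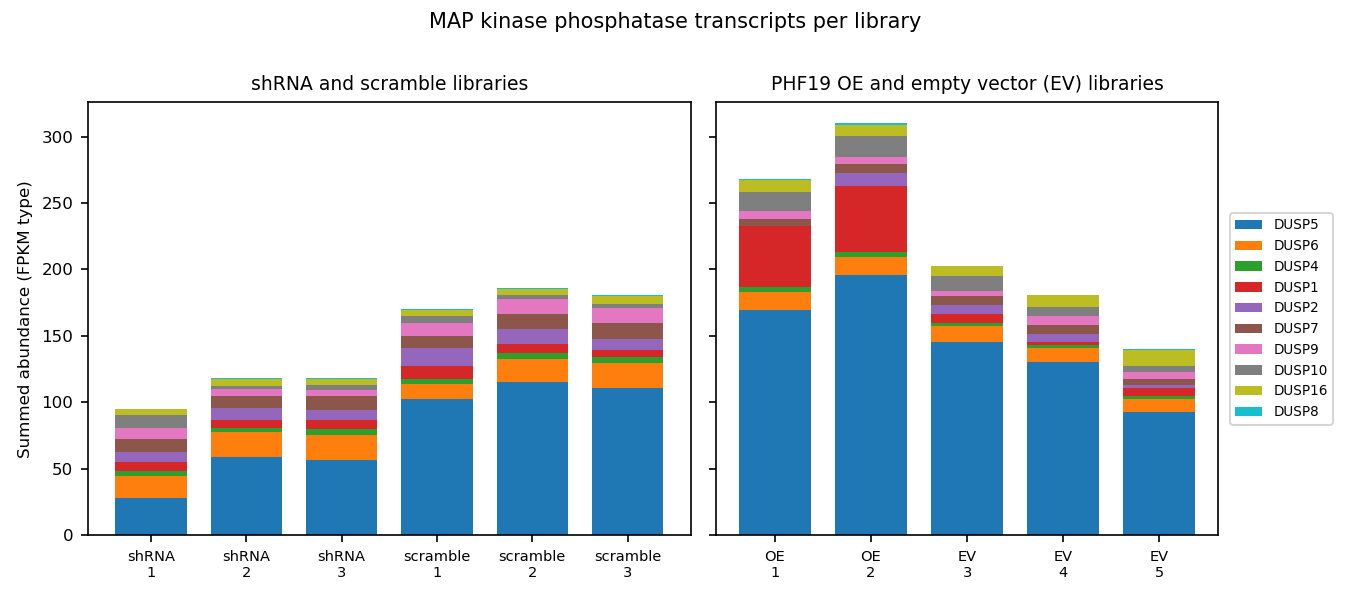
Summed abundance (FPKM type) of 10 MAP kinase phosphatase genes per library, as stacked bars from 0, with DUSP5 at the base; left, shRNA then scramble libraries, and right, OE then EV libraries. The DUSP5 segment is shorter in every shRNA than in every scramble library, and the DUSP1 segment is thicker in both OE than in all 3 EV libraries.

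Among the Sprouty and Spred genes, whose products dampen RAS and RAF signalling, none was called by limma, and limma without trend and robust variances called none either. SPRED1 had 2.45, 3.13 and 3.46 in shRNA libraries, against 1.6, 2.43 and 2.69 in scramble libraries. Each shRNA library was above the scramble library of its number, while the groups overlapped (log2 difference 0.32, SE 0.185). SPRY1 had 4.94, 6.54 and 5.42 in shRNA libraries, against 3.94, 5.26 and 5.27 in scramble libraries (0.19, SE 0.165). SPRED2, the most abundant of the 4, had 9.17, 9.09 and 10.9 in shRNA libraries, against 9.42, 8.71 and 10.7 in scramble libraries. Its groups covered nearly the same range, and its difference of 0.015 (SE 0.143) changed sign in 4 of 14 alternatives. SPRY2 was barely present, with 0.15, 0.35 and 0.16 in shRNA libraries and 0.1, 0.04 and 0.15 in scramble libraries, and was too low to be tested.

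ETV5, an ETS transcription factor whose transcript is a common readout of ERK activity, had 19.5, 33.6 and 35.1 in shRNA libraries, against 12.5, 20.9 and 25.3 in scramble libraries. Replicate 1 was lowest in both groups and the groups overlapped, yet each shRNA library was above its scramble counterpart, by 0.46 to 0.66 on the log2 scale. The log2 difference was 0.57 (SE 0.277), called only with the replicate block, and 0.30 without scramble replicate 1. Within ETV1, ETV4 and ETV5, the PEA3 group of ETS factors, ETV5 made up 34.0% ± 0.755 of the summed abundance in shRNA and 26.1% ± 5.2 in scramble libraries (SD, n = 3 each). Replicate 1 was the lowest library of both groups for 6 of the 10 genes: DUSP4, DUSP5, DUSP6, SPRY1, SPRED1 and ETV5.

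FOSL1, a subunit of the transcription factor AP-1 also called FRA1, had 1.97, 2.88 and 2.76 in shRNA libraries, against 4.15, 3.58 and 5.96 in scramble libraries. The groups did not overlap, and the scramble libraries were the more spread out. The log2 difference of -0.64 (SE 0.195) was called with the replicate block and after quantile normalisation, and not otherwise.

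RPS6KA2 encodes RSK3, a kinase that ERK phosphorylates. It had 3.14, 3.19 and 3.57 in shRNA libraries, against 0.33, 0.22 and 0.41 in scramble libraries. The 3 shRNA libraries were close together and far above all scramble libraries, at means of 3.3 ± 0.235 in shRNA and 0.32 ± 0.0954 in scramble libraries (SD, n = 3 each). The log2 difference was 1.70 (SE 0.153) with a pseudocount of 1, which understates it for a gene this low: pseudocounts of 0.5 and 0.1 gave 2.22 and 3.04. It had passed the filter on low values only through the shRNA libraries, so its call in the main fit has no weight. It was called with no filter too (limma adjusted p = 0.00682), but nothing is inferred, because the gene was chosen with this comparison known. RPS6KA2 remained a minor RSK transcript, with 8.5% ± 0.798 of the summed RPS6KA1, RPS6KA2 and RPS6KA3 abundance in shRNA and 0.951% ± 0.293 in scramble libraries.

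RefSeq places 3 starts of RPS6KA2 on the minus strand of chromosome 6 (GRCh38.p14), and a value per gene does not tell which of them was used. The 250 bases before each start are shown because this gene had the largest difference of the 10. They are read 5′ to 3′ along the gene, with CpG dinucleotides, the bases that DNA methylation acts on, in capitals.
RPS6KA2 chr6:166862526-166862775: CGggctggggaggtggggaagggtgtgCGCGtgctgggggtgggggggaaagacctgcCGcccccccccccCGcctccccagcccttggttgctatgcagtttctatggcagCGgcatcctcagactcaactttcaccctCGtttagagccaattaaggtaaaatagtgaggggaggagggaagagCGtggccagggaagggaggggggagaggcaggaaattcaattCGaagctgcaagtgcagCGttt
RPS6KA2 chr6:166627252-166627501: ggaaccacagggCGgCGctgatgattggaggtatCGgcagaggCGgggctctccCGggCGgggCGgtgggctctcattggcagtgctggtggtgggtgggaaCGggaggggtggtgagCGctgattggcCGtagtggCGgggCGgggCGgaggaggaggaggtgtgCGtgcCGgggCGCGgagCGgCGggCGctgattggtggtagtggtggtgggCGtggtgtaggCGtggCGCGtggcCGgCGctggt
RPS6KA2 chr6:166544691-166544940: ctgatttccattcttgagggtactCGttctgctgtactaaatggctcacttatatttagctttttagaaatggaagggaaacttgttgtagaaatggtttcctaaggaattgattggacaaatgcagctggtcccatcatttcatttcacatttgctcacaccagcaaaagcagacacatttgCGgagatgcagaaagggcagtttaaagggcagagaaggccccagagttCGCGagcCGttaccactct
The windows hold 10, 26 and 5 CpGs in the order shown, which is more than 47.8%, 80.4% and 34.3% of 35116 RefSeq promoter windows of the same length, whose median is 11. Neither strand of the 3 windows held CCGGAA, the core of many ETS sites (in 14.5% of all windows), TGANTCA, the AP-1 site (6.57%), TGACGTCA, the CRE (1.65%), or TGATGNAA, the composite element of ATF4 and C/EBP factors (3.14%). Of the 12 windows found for 6 of the genes, SPRY1 and SPRY2 each had 1 window with CCGGAA and SPRED2 had 1 with the composite element. These are matches of letters only. RefSeq also annotates loci within or overlapping RPS6KA2 (such as RPS6KA2-IT1 and RAMACL), ETV5 (ETV5-AS1) and DUSP6 (the POC1B-DUSP6 readthrough). How the authors assigned reads, and whether by strand, is not stated, so these genes may include reads of such neighbours.

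With PHF19 overexpression none of the genes was called. Of the 8 genes that reached 1 in 2 or more libraries, 0 were called by limma, and 0 by limma without trend and robust variances, where 0.914% of all 10279 genes tested were called, 0.613% higher and 0.302% lower. At an unadjusted p under 0.05 there was 1 of 8, against 11.5% of all genes. Groups did not overlap for DUSP4, DUSP5 and DUSP6, 3 of the 8, all higher in OE libraries, and for 34.2% of all genes, 23.1% higher and 11.1% lower. Nothing is read from these shares, which lie near each other and belong to genes chosen with this comparison known.

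**Figure D3:**
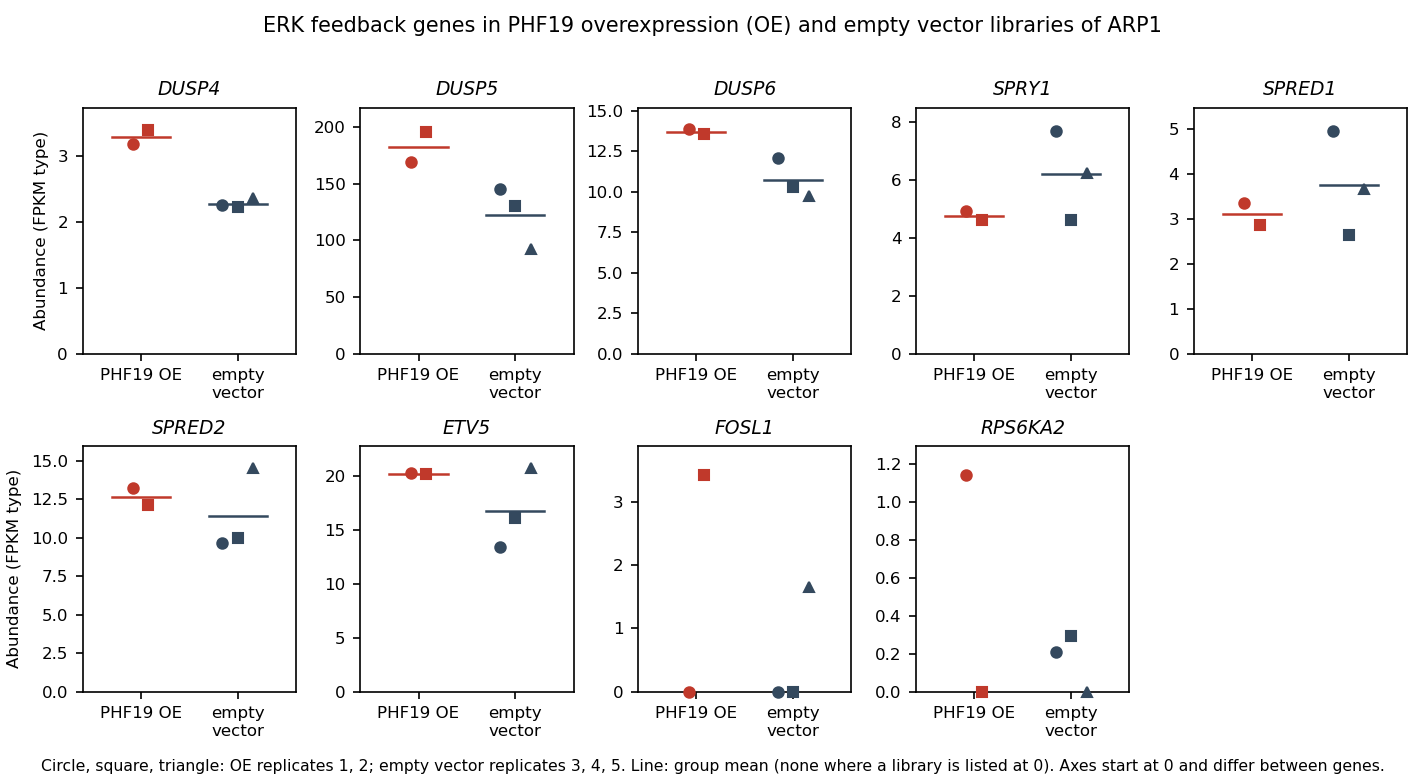
Abundance (FPKM type) of 9 genes in the 2 PHF19 OE libraries (left, red) and the 3 EV libraries (right, blue), with a line at the group mean except where a library is listed at 0. DUSP4, DUSP5 and DUSP6 have both OE points above all EV points; FOSL1 and RPS6KA2 have points at 0 in both groups.

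DUSP5 had 169.5 and 196 in OE libraries, against 145, 130 and 92.5 in EV libraries. EV replicate 5 was the lowest, and the log2 difference was 0.59 (SE 0.234). DUSP4 had 3.18 and 3.4 in OE libraries, against 2.25, 2.23 and 2.36 in EV libraries, tight in both groups (0.39, SE 0.143). DUSP6 had 13.9 and 13.6 in OE libraries, against 12.1, 10.3 and 9.77 in EV libraries (0.33, SE 0.138). After quantile normalisation the differences were smaller, at 0.40 for DUSP5, 0.27 for DUSP4 and 0.23 for DUSP6. The part that the larger summed values of the OE libraries have in these differences was not tested. The sum of the 10 phosphatase genes was 268.5 and 310.4 in OE and 140.4 to 202.9 in EV libraries. DUSP5 made up 63.1% of it in both OE libraries and 69.9% ± 3.44 in EV libraries (SD, n = 3). DUSP1, which acts on JNK and p38 as well as ERK, made up 17.2% and 16.1% in OE and 1.58% to 4.23% in EV libraries. DUSP2 is listed at 0 in OE replicate 1 and at 10.2 in OE replicate 2. The sum and shares of OE replicate 1 therefore hold no DUSP2.

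SPRY1 had 4.91 and 4.6 in OE libraries, against 7.69, 4.61 and 6.23 in EV libraries (-0.30, SE 0.232). SPRED1 had 3.35 and 2.85 in OE libraries, against 4.95, 2.65 and 3.67 in EV libraries (-0.19, SE 0.262). EV replicate 3 was highest and EV replicate 4 lowest among EV libraries for both. SPRED2 had 13.2 and 12.1 in OE libraries, against 9.69, 10.0 and 14.5 in EV libraries (0.16, SE 0.217). ETV5 had 20.2 in both OE libraries, against 13.4, 16.1 and 20.7 in EV libraries (0.28, SE 0.207), and its share of the PEA3 group was 37.8% and 35.9% in OE and 34.0% to 39.2% in EV libraries. For SPRED2 and ETV5 the spread of the EV libraries spanned both OE values. FOSL1 is listed at 0 and 3.43 in OE libraries and at 0, 0 and 1.65 in EV libraries, and RPS6KA2 at 1.14 and 0 in OE libraries and 0.207, 0.296 and 0 in EV libraries. Neither allows a difference to be given.

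**Figure D4:**
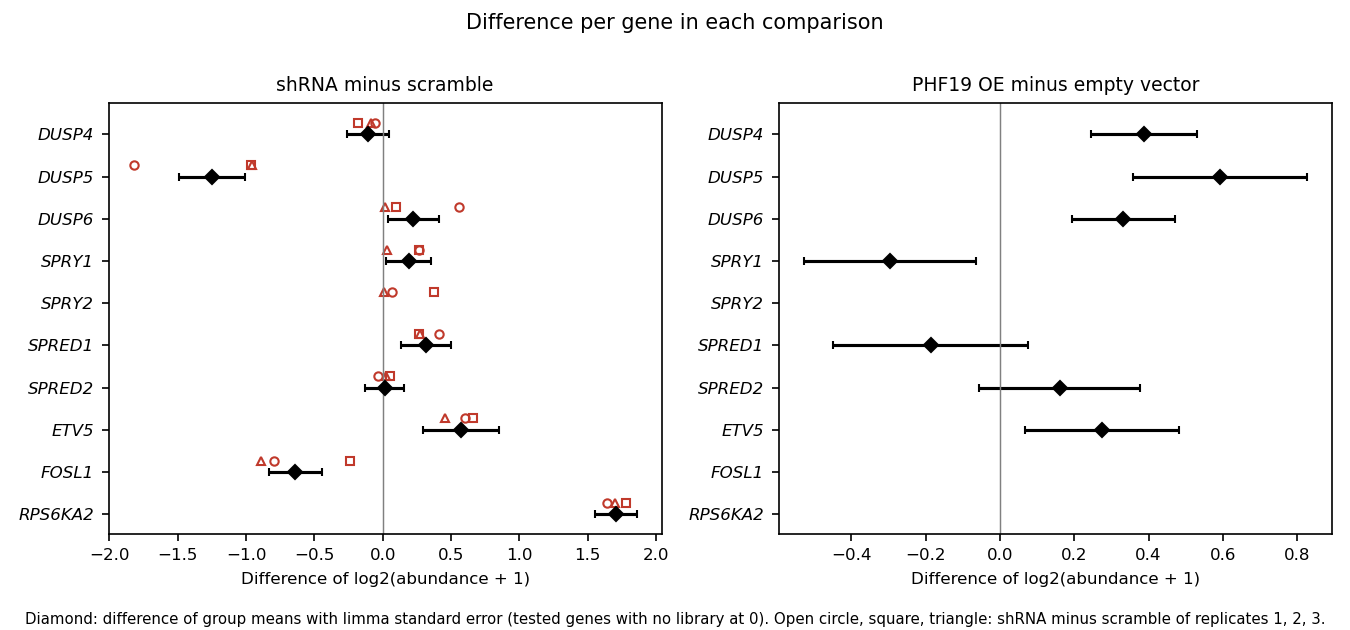
Difference of mean log2(abundance + 1) per gene, shRNA minus scramble on the left and OE minus EV on the right; diamonds carry the limma standard error, and open symbols on the left are the differences of libraries with equal replicate number. DUSP5 lies at -1.25 on the left and 0.59 on the right, and the panels have different scales.

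The order of the levels was much alike in the 4 groups. DUSP5 was highest in each, followed by ETV5, and in shRNA libraries alone their ranges touched (28.3 to 58.5 for DUSP5 and 19.5 to 35.1 for ETV5). DUSP6 and SPRED2 came next, with ranges that overlapped each other in EV libraries. ETV5 overlapped in range with DUSP6 in scramble libraries and with SPRED2 in EV libraries. SPRY1 followed, overlapping with FOSL1 and DUSP4 in scramble and with SPRED1 in EV libraries. SPRED1, DUSP4 and FOSL1 lay below 6 in every library of both tables. RPS6KA2 stood between DUSP4 and SPRED1 in shRNA libraries, with ranges that overlapped, and in scramble libraries below SPRED1 without overlap. The tables were normalised separately, so levels are ordered only within each.

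Across the 6 knockdown libraries the genes whose log2 values, centred on the scramble mean, lay closest to those of DUSP5 among 8198 genes compared were ATAD3B (Euclidean distance 0.292), SNAI3 (0.42), SH2D3A (0.54), LGALS1 (0.597) and AQP3 (0.611). SNAI3, a member of the Snail family of transcription factors, had 3.16, 6.11 and 6.42 in shRNA libraries, against 10.6, 11.2 and 12.7 in scramble libraries. AQP3, a water and glycerol channel, had 4.15, 6.48 and 6.59 in shRNA libraries, against 10.8, 12.7 and 12.6 in scramble libraries. Their likeness to DUSP5, the low shRNA replicate 1 included, was fixed by the way they were chosen. ATAD3B has near-identical paralogs, and its values are uncertain. In the overexpression table SNAI3 overlapped between groups, at 7.77 and 11.5 in OE and 6.73 to 12.2 in EV libraries.

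The rest of the pathway was read from 9 lists of 117 genes, none of them among the 10. After PHF19 shRNA, 91 were tested and 6 were called (6.59%, against 5.51% of all genes), 4 higher (4.24% of all genes were) and 2 lower (1.28%). The median log2 difference was 0.007 over the 91 and 0.034 over all genes tested. In the cascade of RAS, RAF, MEK and ERK with its adaptors, 2 of 24 genes rose and none fell. They were GAB2, an adaptor that recruits SHP2, with 9.03, 7.23 and 9.94 in shRNA libraries and 4.33, 3.84 and 5.35 in scramble libraries (0.82, limma adjusted p = 0.0267), and SOS2, a RAS exchange factor, with 8.36, 8.9 and 9.02 in shRNA libraries and 2.65, 4.77 and 6.04 in scramble libraries (0.88, limma adjusted p = 0.0489, called in 3 of 14 alternatives). Among receptors upstream of RAS, 1 of 8 rose: FGFR1, a fibroblast growth factor receptor, at 3.8 ± 0.512 in shRNA and 1.78 ± 0.166 in scramble libraries (SD, n = 3 each, 0.79, limma adjusted p = 0.0243).

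Of 6 other MAP kinase phosphatases tested, DUSP9, a cytoplasmic phosphatase of ERK like DUSP6, fell. It had 7.76, 5.49 and 4.77 in shRNA libraries, against 9.37, 11.6 and 11.1 in scramble libraries (-0.76, limma adjusted p = 0.0408). DUSP2 was 8.08 ± 0.444 in shRNA and 11.2 ± 2.38 in scramble libraries (SD, n = 3 each, limma adjusted p = 0.17). Of 3 other feedback inhibitors tested, LRIG1, which promotes degradation of EGF-family receptors, rose. It had 28.3, 26.9 and 26.3 in shRNA libraries, against 15.7, 17.2 and 20.5 in scramble libraries (0.59, limma adjusted p = 0.0325). SPRY4, the most abundant Sprouty transcript of the knockdown table by mean, was 8.08 ± 0.908 in shRNA and 6.32 ± 1.68 in scramble libraries (SD, n = 3 each, limma adjusted p = 0.295). Of 12 other ETS factors, ETS1, the founding member of the family, fell to 18.4 ± 3.3 in shRNA libraries, against 30.8 ± 4.37 in scramble libraries (SD, n = 3 each, -0.72, limma adjusted p = 0.0346), and ERF, an ETS repressor, was 34.9 ± 5.54 in shRNA and 41.8 ± 0.72 in scramble libraries (limma adjusted p = 0.254).

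In 4 lists limma called 0 genes. At an unadjusted p under 0.05, which 24.1% of all genes tested reached, they had 1 of 6 other AP-1 subunits, 0 of 6 other RSK, MSK and MNK kinases, 3 of 12 other ERK output genes and 6 of 14 genes of the JNK, p38 and ERK5 branches. MYC, a transcription factor stabilised by ERK, had 134, 193 and 204 in shRNA libraries, against 262, 233 and 248 in scramble libraries, without overlap (-0.50, limma adjusted p = 0.103). FOSL2 was 1.77 ± 0.17 in shRNA and 1.2 ± 0.437 in scramble libraries (SD, n = 3 each, limma adjusted p = 0.278). MKNK1 was 6.42 ± 0.302 in shRNA and 8.13 ± 0.896 in scramble libraries (limma adjusted p = 0.231). MKNK2 was 38.4 ± 6.87 in shRNA and 45.1 ± 3.16 in scramble libraries (limma adjusted p = 0.351). MAPK12 was 32.5 ± 1.57 in shRNA and 25.0 ± 1.94 in scramble libraries (limma adjusted p = 0.098).

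With the replicate block, 12 list genes were called, 6 higher and 6 lower, where 8.2% and 3.68% of all genes were. Among those added were the insulin receptor INSR (limma adjusted p = 0.0339, against 0.0642 without the block), which was higher, and FGFR4 (0.0329, against 0.0826), FOS (0.0462, against 0.163), MAPK8 (0.047, against 0.0921) and PLAUR, the urokinase receptor (0.0382, against 0.128), all lower. Without scramble replicate 1 or 2, or without shRNA replicate 3, no list gene was called, and without scramble replicate 3 or shRNA replicate 2 there were 1 and 2.

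**Figure D5:**
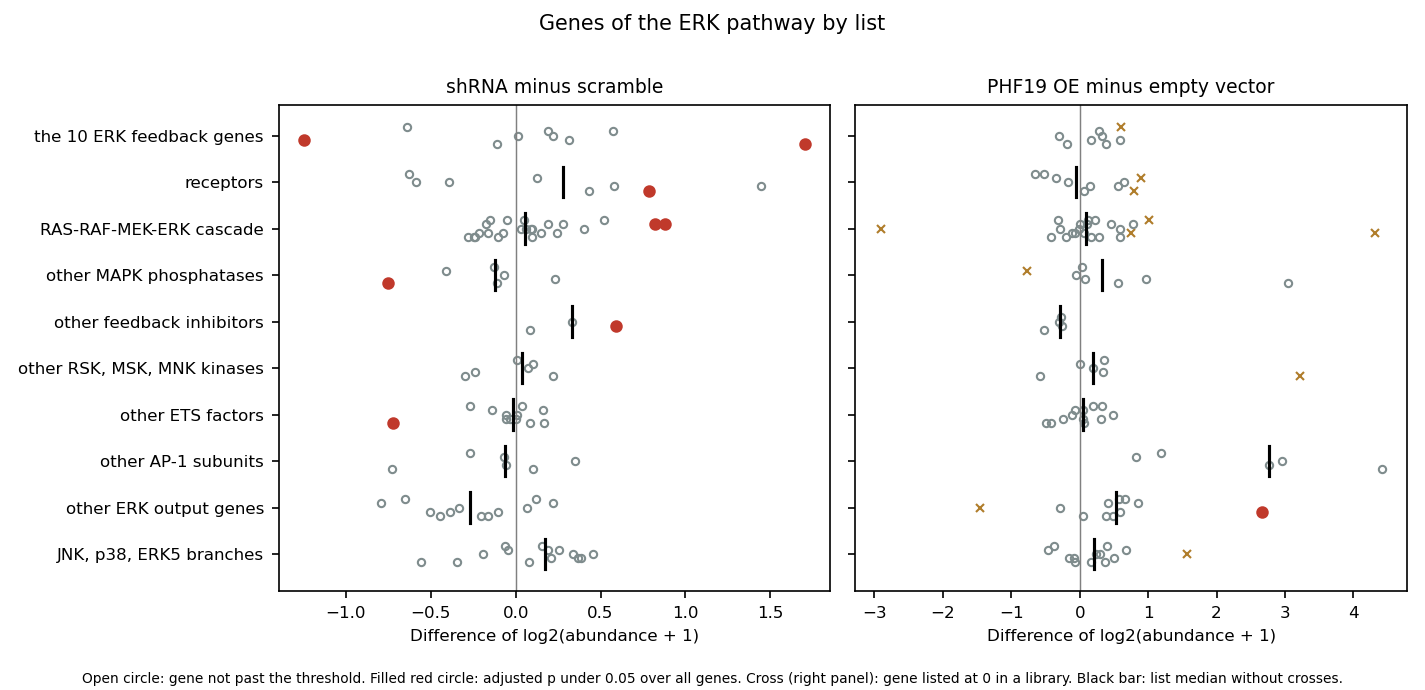
Difference of mean log2(abundance + 1) for each tested gene, shRNA minus scramble on the left and OE minus EV on the right. Shown are the 9 pathway lists and the 10 feedback genes. Called genes are filled red points. On the right, genes listed at 0 in a library are crosses, MKNK1 among them although it was called. A bar marks the median of each pathway list without crosses, and the feedback genes have no bar. The other AP-1 subunits lie between 0.82 and 4.42 on the right and between -0.73 and 0.35 on the left.

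With PHF19 overexpression 90 list genes were tested, 2 were called higher and 0 lower by limma (2.22%, against 0.914% of all genes in either direction, and 0 called once every gene with a library at 0 was dropped), and 21 of 90 had an unadjusted p under 0.05, as had 11.5% of all genes. The median log2 difference of the 80 with no library at 0 was 0.13, and 0.071 over the 8665 such genes. EGR1, an immediate early transcription factor of the ERK output list, rose, with 21.6 and 22.1 in OE libraries, against 1.77, 2.48 and 3.81 in EV libraries (2.67, SE 0.274, limma adjusted p = 0.0457). Its call was lost in 8 of 13 alternatives: at pseudocounts of 0.1 and 0.5, with a filter at 5, without genes listed at 0, and without OE replicate 1 or 2 or EV replicate 3 or 4. MKNK1, a kinase that ERK activates, is listed at 7.44 and 9.32 in OE libraries and at 0 in all EV libraries; it passed the filter only through OE libraries, so its call has no weight. All 5 other AP-1 subunits tested were higher in both OE than in all EV libraries (23.1% of all genes were), all 5 had an unadjusted p under 0.05 (11.5% of all genes had), and 0 were called by limma. FOS had 53.8 and 58.7 in OE libraries, against 3.26, 0.501 and 2.0 in EV libraries (4.42, limma adjusted p = 0.0604), and FOSB 20.1 and 16 in OE libraries, against 3.2, 0.965 and 1.61 in EV libraries (2.77, limma adjusted p = 0.12).

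Among the other phosphatases DUSP1 had 46.2 and 50.1 in OE libraries, against 6.76, 2.86 and 5.94 in EV libraries (3.05, limma adjusted p = 0.0696), against differences of 0.33 to 0.59 for DUSP4, DUSP5 and DUSP6. DUSP10, a phosphatase of JNK and p38, was 14.3 and 15.4 in OE libraries and 11.3, 7.24 and 4.16 in EV libraries (0.97, limma adjusted p = 0.474). All 4 other feedback inhibitors tested had negative differences, of -0.52 to -0.27, and none passed, led by CBL, a ubiquitin ligase for receptors, with 15.2 and 12.9 in OE libraries and 19.2, 20.2 and 21.9 in EV libraries (limma adjusted p = 0.328). LRIG1 was 21.0 and 20.5 in OE libraries and 21.2 to 27.5 in EV libraries (limma adjusted p = 0.569). The remaining genes named by rank within their lists did not pass. Those with higher OE than EV means were MAP2K2 (limma adjusted p = 0.273), HRAS (0.419), FGFR1 (0.515), IER2 (0.257), MAPKAPK2 (0.207) and MAPK7 (0.312), and those with lower OE means were IGF1R (0.441), ETS1 (0.328), ELF1 (0.385) and RPS6KA5 (0.312).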

How the data were processed

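RNA-seq libraries of ARP1 cells were analysed from 2 tables deposited by the authors, with abundances recorded here as FPKM. No unit stands in the headers, so RPKM or TPM are as possible as FPKM. Per the submitters' processing notes, TopHat and hg19 were used. Which quantifier, annotation and gene filter were applied is not stated. The authors' p-value columns, per the file headers, were not used. Both tables are partial gene lists, and 24 symbols of the knockdown table read as dates. Depth is unknown, so no counting intervals were computed.

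Each table was fitted alone with limma 3.58.1 (R 4.3.3; trend, robust variances, two-sided) on log2(FPKM + 1). Genes with at least 1 in at least 3 (knockdown) or 2 (overexpression) libraries were tested, with Benjamini-Hochberg adjustment over all of them and a threshold of 0.05. The script was tested on simulated data. Python 3.11.15, pandas 2.3.3, numpy 2.4.6 and matplotlib 3.10.9 made the other tables and the plots. Promoter sequences are from RefSeq (GRCh38.p14).

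The 10 genes, the 9 lists and the naming rule were chosen with earlier results of these data known. Named are the 10 genes, PHF19, the 2 genes of each list with the smallest p per comparison, and further called list genes. Also named are the 5 nearest to DUSP5 with a mean of at least 5. Named after their values were seen were some genes added by the replicate block, KRT18, LYZ, CD3E, CD14, PTPRC, IGJ (JCHAIN), XBP1, SDC1, CD38 and PRDM1. So were IRF4, SLAMF7, POU2AF1, TNFRSF17, MZB1, FGFR4, MAP2K1 and FGFR3. Deviations from group means correlated at 0.341, 0.27 and 0.273 between shRNA and scramble libraries of equal number, and at -0.277 to 0.0936 otherwise. The replicate number was therefore also fitted as a block, as 1 of the alternatives. This pairing comes from the data and from no label, so whether libraries of equal number belong together is not known. The main fit leaves it out, and values are from the main fit unless the block is named. OE and EV share no replicate numbers. The alternatives tried were limma without its trend and robust options, quantile and median-of-ratios scaling, no filter and a filter at 5, pseudocounts of 0.1 and 0.5, each library left out, the replicate block, and leaving out genes listed at 0.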

Additional observations from a re-analysis of the deposited data

How the results depend on the processing

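In the knockdown comparison 601 genes were called, 462 higher and 139 lower; quantile normalisation gave 377 higher and 206 lower, median-of-ratios scaling 408 and 189. No filter gave 269 genes, 1 of the 10 feedback genes (RPS6KA2, with DUSP5 lost) and 1 list gene. A filter at 5 gave 1 feedback gene, DUSP5, since RPS6KA2 was no longer tested. The replicate block gave 1295 genes, 4 feedback genes and 12 list genes, and its log2 difference for PHF19 was -0.44 (limma adjusted p = 0.0445); it changed no other call named here than those given above. With each library left out in turn, 54 to 629 genes, 1 to 2 feedback genes and 0 to 6 list genes were called; the lowest were 54, 58 and 164 genes without scramble replicate 1, 2 and 3, then 180 and 285 without shRNA replicate 3 and 2. Each of these fits has 1 library fewer, and the cause was not tested further.

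In the overexpression comparison 94 genes were called. A filter at 5 gave 36 genes and 0 list genes, a pseudocount of 0.1 gave 61 and 0, a pseudocount of 0.5 left 1 list gene, MKNK1, and leaving out genes listed at 0 gave 0 genes and 0 list genes by limma, with 1201 genes at an unadjusted p under 0.05. With each library left out, 107 to 350 genes (350 without EV replicate 5, 148 without OE replicate 1) and 0 to 7 list genes were called. None of the feedback genes was called in any of these. The PHF19 difference kept its direction and did not pass with limma without trend and robust variances (0.93, limma adjusted p = 0.0781), quantile normalisation (0.75, 0.166), median-of-ratios scaling (0.85, 0.0548), a filter at 5 (0.93, 0.065), a pseudocount of 0.1 (0.93, 0.0532) or without genes listed at 0 (0.93, 0.156), and ranged from 0.88 to 0.97 with each library left out. The cause was not tested. Quantile normalisation moved the median log2 difference of all genes by more than 0.1, to -0.045 from 0.087. No paired analysis was possible for OE and EV because they share no replicate numbers.

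Unknown depth, 2 or 3 libraries a group and the genes listed at 0 limit what the overexpression table can show. Values near 0.3, such as RPS6KA2 in scramble libraries, rest on numbers rounded to 2 decimals.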

Other observations

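FGFR3, a receptor upstream of RAS that is activated in a subset of myelomas, was chosen here after its values were seen. It had 37.1, 2.26 and 2.47 in shRNA libraries, against 1.83, 1.85 and 1.65 in scramble libraries, so that shRNA replicate 1 alone was high (log2 difference 1.45, SE 1.04, limma adjusted p = 0.461). The same library had the lowest DUSP5 value, 28.3, and the highest DUSP10 value, 9.81, against 2.6 and 3.5 in the other shRNA libraries and 3.17 to 5.18 in scramble libraries. FGFR3 had 2.92 and 2.67 in OE libraries and 2.62 to 4.1 in EV libraries.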
